A study of Mus musculus with 6 samples.

Results

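The angiopoietins, the vascular endothelial growth factor (VEGF) ligands and their receptors were followed in mouse N2A cells after knockdown of Pax6. The group holds 10 of the 19938 genes that had a probe set with a single gene symbol. It comprises 3 VEGF ligands (Vegfa, Vegfb and Vegfc), their 3 receptors (Flt1, Kdr and Flt4), 2 angiopoietins (Angpt1 and Angpt2) and the 2 TIE receptors (Tek and Tie1). It was chosen by the array signal of Angpt2, around whose large fall in the comparison described here it was built, so the values of Angpt2 are given as a description, without a test.

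N2A (neuro 2A) is an established mouse neuroblastoma line. Control cells were transiently transfected with a non-targeting short hairpin RNA (shRNA) vector, and Pax6 knockdown cells with a vector whose hairpin is directed against Pax6, which encodes a transcription factor of brain and eye development. All cells received 1.5 µg of vector, RNA was taken after 3 days, and a whole-transcript mouse gene array was hybridised with the product of 200 ng of RNA. There were 3 arrays of each kind, which the labels name by replicate number. No group was a stable clone, no sorting of transfected cells is described, and the labels give no other difference between the groups than the vector.

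Angiopoietins are secreted glycoproteins that bind the receptor tyrosine kinase TIE2, the product of Tek. ANGPT1 activates TIE2 and keeps vessels quiet and tight, whereas ANGPT2 acts as an antagonist or a weak, context-dependent agonist that loosens vessels and primes them for VEGF. TIE1 has no well-established ligand of high affinity and modulates TIE2 signalling. VEGFA drives the growth and leakiness of vessels through KDR (VEGFR2), with FLT1 (VEGFR1) acting largely as a trap for it, VEGFB binds FLT1, and VEGFC drives lymphatic growth through FLT4 (VEGFR3). In the nervous system the receptors are mainly those of endothelial cells, while neural cells are a well-known source of VEGF ligands.

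The oligonucleotide that the study lists for its Pax6 hairpin is shown because a hairpin against Pax6 was the treatment. The 17 bases of each arm that are complementary to the other arm are in capitals, and the loop and the remaining bases are in lower case. The labels do not state which hairpin was on the vector used for the arrays.
Pax6sh896FOR: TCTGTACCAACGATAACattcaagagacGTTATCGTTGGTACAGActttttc

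The promoters of the 3 VEGF ligands are shown because these ligands lay above the low-value filter on every array. Each line holds the 250 bases before the start of the gene from RefSeq (GRCm38.p6), in the direction of transcription, with the GC box, GGGCGG or its reverse complement, in capitals. The windows are chr17:46032378-46032627 on the minus strand for Vegfa, chr19:6987652-6987901 on the minus strand for Vegfb and chr8:54077282-54077531 on the plus strand for Vegfc.
Vegfa: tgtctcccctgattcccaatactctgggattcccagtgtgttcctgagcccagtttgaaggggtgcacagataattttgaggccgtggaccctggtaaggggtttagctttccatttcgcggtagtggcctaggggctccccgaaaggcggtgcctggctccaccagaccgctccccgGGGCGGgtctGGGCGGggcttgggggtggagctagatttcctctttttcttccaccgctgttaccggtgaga
Vegfb: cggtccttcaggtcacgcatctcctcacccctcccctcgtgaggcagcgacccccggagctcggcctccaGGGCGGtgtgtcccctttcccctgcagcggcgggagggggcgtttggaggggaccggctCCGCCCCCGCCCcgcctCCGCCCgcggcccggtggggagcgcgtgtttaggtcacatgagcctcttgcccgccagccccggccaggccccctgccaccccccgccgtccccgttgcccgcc
Vegfc: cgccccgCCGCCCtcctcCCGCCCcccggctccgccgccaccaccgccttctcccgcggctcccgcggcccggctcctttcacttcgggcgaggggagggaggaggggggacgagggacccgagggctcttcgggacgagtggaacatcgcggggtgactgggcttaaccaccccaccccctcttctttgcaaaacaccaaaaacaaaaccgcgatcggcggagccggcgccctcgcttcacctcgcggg

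The RefSeq promoter table held 8 of the 10 members, in 9 windows because Vegfa had a further start. Angpt1 and Angpt2 were not in the table. Over 32851 windows of 250 bases and both strands, the core of the PAX6 paired-domain site, TTCACGC, was present in 1.03% of windows and in 0 of the 9 member windows. The PAX6 homeodomain dimer site, a spaced inverted repeat of TAAT, was present in 0.384% of windows and again in 0 of the 9. The GC box lay in 32.7% of all windows and in 7 of the 9 member windows, those of Kdr, Flt1, Vegfc, Flt4, Vegfa and Vegfb. There were 2 GC boxes in the Vegfa window shown, 4 in that of Vegfb and 2 in that of Vegfc, and their GC content was 59.2%, 76.4% and 71.6%, against a median of 52.4% over all windows. The hypoxia response core, ACGTG, was in 16.6% of windows and in 1 member window, the further one of Vegfa and not the one shown. That further window, chr17:46025164-46025413 on the minus strand, lies downstream of the one shown in the direction of transcription. The TATA box, TATAAA, was in 12.4% of windows and in 1 member window, that of Flt1. Matches of different motifs did not overlap in the member windows, and a match describes the letters of a window only.

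Values are log2 signals after RMA, and every difference is knockdown minus control on that scale with n = 3 arrays in each group. Because each gene is read by its own probes, levels are compared between arrays and not between genes. Pax6 was measured at 8.79, 8.82 and 8.81 in the control and at 8.48, 8.30 and 8.50 in the knockdown arrays. The groups did not overlap, and Pax6 fell by 0.38 (SE 0.071, adjusted p = 0.0382 by limma with Benjamini-Hochberg adjustment over 11424 tested genes). Without any of the control replicates, or without knockdown replicate 3, the adjusted p of Pax6 no longer passed a false discovery rate (FDR) of 10%, reaching at most 0.231 over all alternatives run.

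A gene was tested if it lay above the median of all probe sets of the array on at least 3 of the 6 arrays. By this rule 5 of the 10 members were tested, namely Angpt2, Vegfa, Vegfb, Vegfc and Flt1, and the other 5, Angpt1, Tek, Tie1, Kdr and Flt4, lay below the median on all 6 arrays. Of the tested members 1, Angpt2, was past 10% FDR, where 762 of 11424 tested genes (6.67%) were, 443 lower (3.88%) and 319 higher (2.79%). Since Angpt2 was the reason for the grouping, nothing is read from that count. The knockdown arrays lay wholly below the control arrays for 2 of the 5, Angpt2 and Vegfc, where 11.7% of all tested genes had their knockdown arrays wholly below the control arrays. Angpt2 is counted here too, so nothing is read from that share either. The median difference of the 5 was 0.0043, against 0.017 over all tested genes.

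Angpt2, the TIE2 ligand, was measured at 10.31, 10.14 and 9.94 in control replicates 1 to 3. In the knockdown arrays it was at 8.87, 8.53 and 8.63. Every knockdown array was thus more than 1 log2 unit below every control array. The mean was 10.13 ± 0.19 (SD, n = 3) in control and 8.68 ± 0.17 (SD, n = 3) in knockdown cells, a difference of -1.45 (SE 0.12), which is a signal 63.5% lower or 2.74-fold lower. Taken within replicate numbers, the difference was -1.44, -1.61 and -1.31. In these cultures, a smaller number of cells that make a transcript and less of it per cell cannot be told apart.

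**Figure D1:**
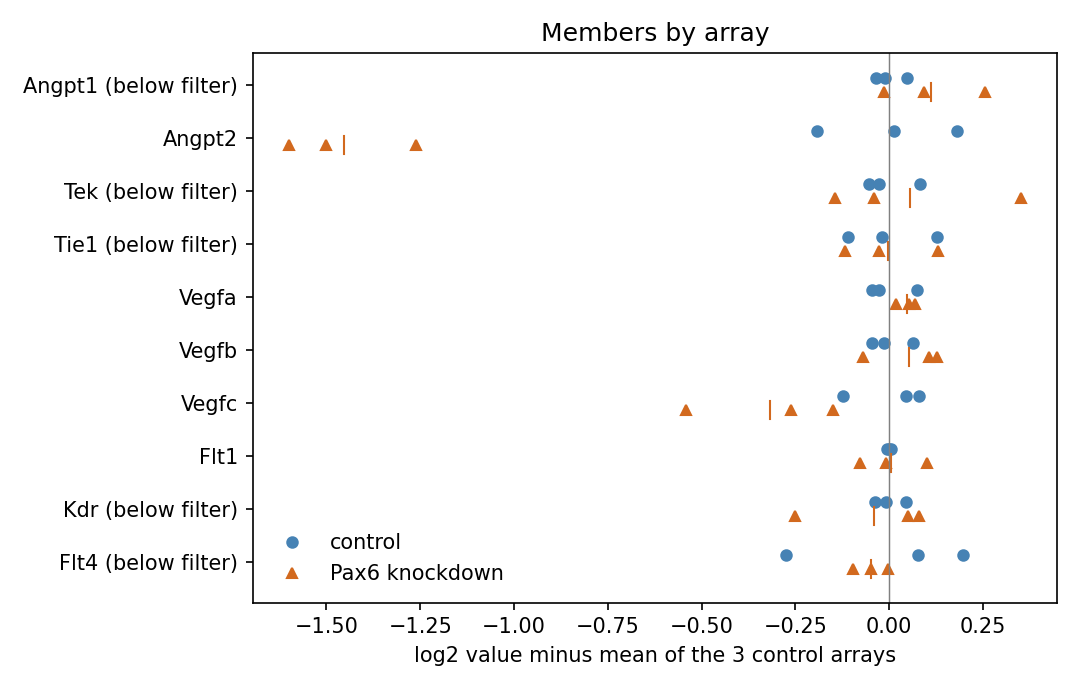
Each member's log2 signal on each array, minus the mean of its control arrays (x axis, log2 units), with circles for control, triangles for Pax6 knockdown and a tick at the knockdown mean; members below the low-value filter are marked. Angpt2 lies 1.45 lower in the knockdown, Vegfc 0.32 lower, and the other 8 members have groups that overlap.

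Vegfc, the lymphatic growth factor, was measured at 9.04, 9.08 and 8.87 in control and at 8.74, 8.46 and 8.85 in knockdown arrays. Its groups did not overlap, but control replicate 3 and knockdown replicate 3 differed by only 0.03. The means were 9.00 ± 0.11 and 8.68 ± 0.20 (SD, n = 3 each), and the difference of -0.32 (SE 0.11, 95% confidence interval -0.57 to -0.07) did not pass the test across all genes (limma, adjusted p = 0.163). With the replicate number as a block, under which 17.9% of tested genes passed, its adjusted p was 0.0997, and after a second quantile normalization it was 0.089. Without knockdown replicate 2 the difference was -0.21, and with array weights it was -0.15. The block and the second quantile normalization gave the only passes among the 15 alternatives run for Vegfc, and its adjusted p reached 0.432 under the variance filter.

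Vegfa, the main driver of vessel growth, was measured at 11.92, 12.02 and 11.90 in control and at 12.00, 12.01 and 11.96 in knockdown arrays. The groups overlapped and the difference was 0.05 (SE 0.061, limma adjusted p = 0.767), with a 95% confidence interval of -0.09 to 0.19. The interval leaves room for a change of at most 0.19 in either direction, well short of that of Angpt2. Vegfb, the FLT1 ligand linked to fatty acid handling in heart and muscle, was measured at 10.87, 10.98 and 10.90 in control and at 10.84, 11.02 and 11.04 in knockdown arrays. Its groups overlapped too, with a difference of 0.05 (SE 0.073, limma adjusted p = 0.778) and a 95% confidence interval of -0.12 to 0.22.

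Of the receptors, Flt1 alone passed the low-value filter, and on 5 of the 6 arrays rather than on all. It was measured at 7.60, 7.59 and 7.60 in control and at 7.52, 7.70 and 7.59 in knockdown arrays, with array medians between 7.49 and 7.59. The groups overlapped, and the difference of 0.0043 (SE 0.065, limma adjusted p = 0.981) had a 95% confidence interval of -0.15 to 0.15. Kdr, the principal signalling receptor for VEGFA, was at 6.28, 6.37 and 6.31 in control and at 6.40, 6.37 and 6.07 in knockdown arrays. Flt4, the VEGFC receptor, was at 6.58, 6.23 and 6.70 against 6.45, 6.50 and 6.41. Both lay below the median of every array, and their groups overlapped.

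The TIE receptors and Angpt1 lay in the same low range. Tek was at 6.97, 6.86 and 6.84 in control and at 7.24, 6.85 and 6.75 in knockdown arrays. Tie1 was at 7.09, 6.85 and 6.94 against 6.93, 7.09 and 6.84. Angpt1, the agonist of TIE2, was at 5.01, 5.09 and 5.03 against 5.03, 5.30 and 5.14. No group of arrays stood apart for any of these genes. In the fit without a filter the 5 differences lay between -0.05 (Flt4, SE 0.12) and 0.11 (Angpt1, SE 0.083), with 95% confidence intervals within -0.32 and 0.34 and adjusted p between 0.78 and 0.999. Differences near background are compressed by RMA, so these intervals hold for the array signal and not for transcript number.

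**Figure D2:**
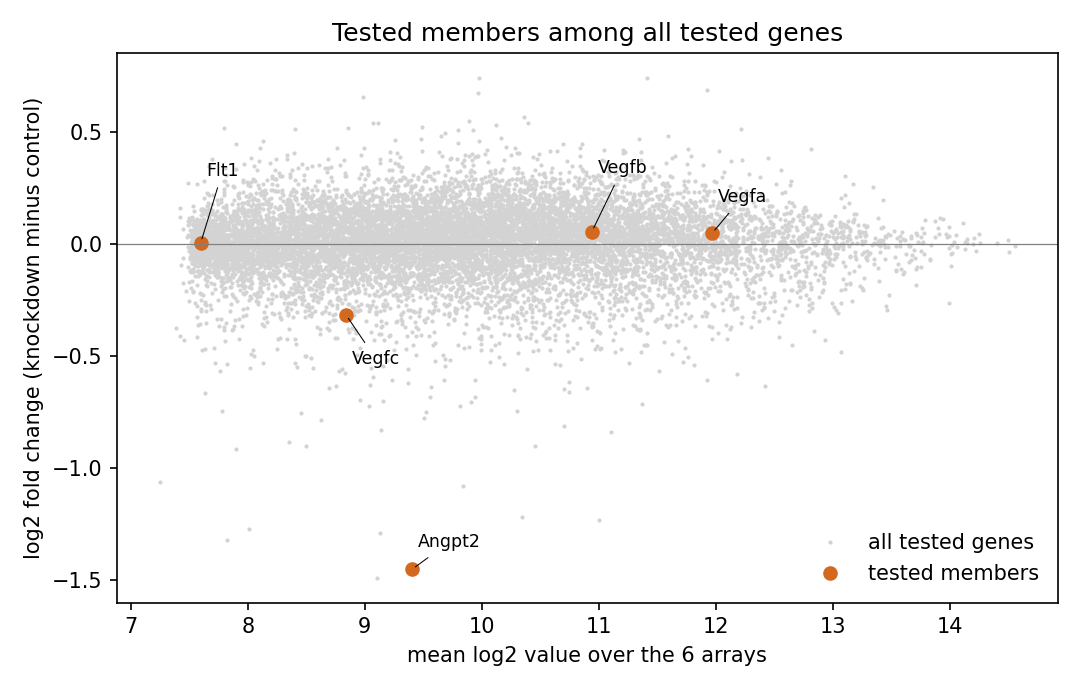
Difference between knockdown and control (y axis, log2 units) against mean log2 signal over the 6 arrays (x axis) for the 11424 tested genes (grey), with the 5 tested members marked. Angpt2 lies at -1.45, far below most genes, while the other tested members lie between -0.32 and 0.05.

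Beyond the 10 members, the families have 3 further ligands, all above the filter, with a median difference of -0.24, against 0.017 over all tested genes. Of the 3, 0 passed 10% FDR in either direction, where 6.67% of all tested genes did. Pgf, placental growth factor, a FLT1 ligand, was measured at 11.67, 11.54 and 11.32 in control and at 11.34, 11.05 and 11.17 in knockdown arrays. Its groups overlapped narrowly, and its difference was -0.33 (SE 0.11, limma adjusted p = 0.151), with an adjusted p of 0.0372 when the replicate number was a block. Angpt4, a further TIE2 ligand, was at 8.01, 7.79 and 8.00 against 7.58, 7.86 and 7.66, a difference of -0.24 (SE 0.095, adjusted p = 0.236). Vegfd, a further ligand of FLT4, differed by 0.013 (SE 0.088, adjusted p = 0.963).

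Among 12 co-receptors, integrins and the endothelial receptor phosphatase that act on these receptors, 8 were tested, 3 fell and 0 rose, where 3.88% and 2.79% of all tested genes did (median difference -0.16). Nrp1, neuropilin 1, which binds VEGFA and semaphorins and partners KDR, was measured at 11.47, 11.57 and 11.53 in control and at 10.78, 10.67 and 10.59 in knockdown arrays. The groups were clear of each other, and Nrp1 fell by 0.84 (SE 0.069, limma adjusted p = 0.00309), a signal 44.2% lower. Nrp2, the neuropilin that partners FLT4, was at 10.33, 10.48 and 10.46 against 10.12, 10.06 and 10.10, and fell by 0.33 (SE 0.064, limma adjusted p = 0.0415). Itgav, the αv integrin subunit, was at 10.83, 10.81 and 10.85 against 10.60, 10.38 and 10.30, and fell by 0.41 (SE 0.083, limma adjusted p = 0.0477). Both neuropilins and the integrin were lower on each of the 3 knockdown arrays than on any control array. Ptprb, the phosphatase that restrains TIE2, lay below the filter, at 6.84, 7.02 and 7.13 against 6.81, 6.83 and 6.81.

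**Figure D3:**
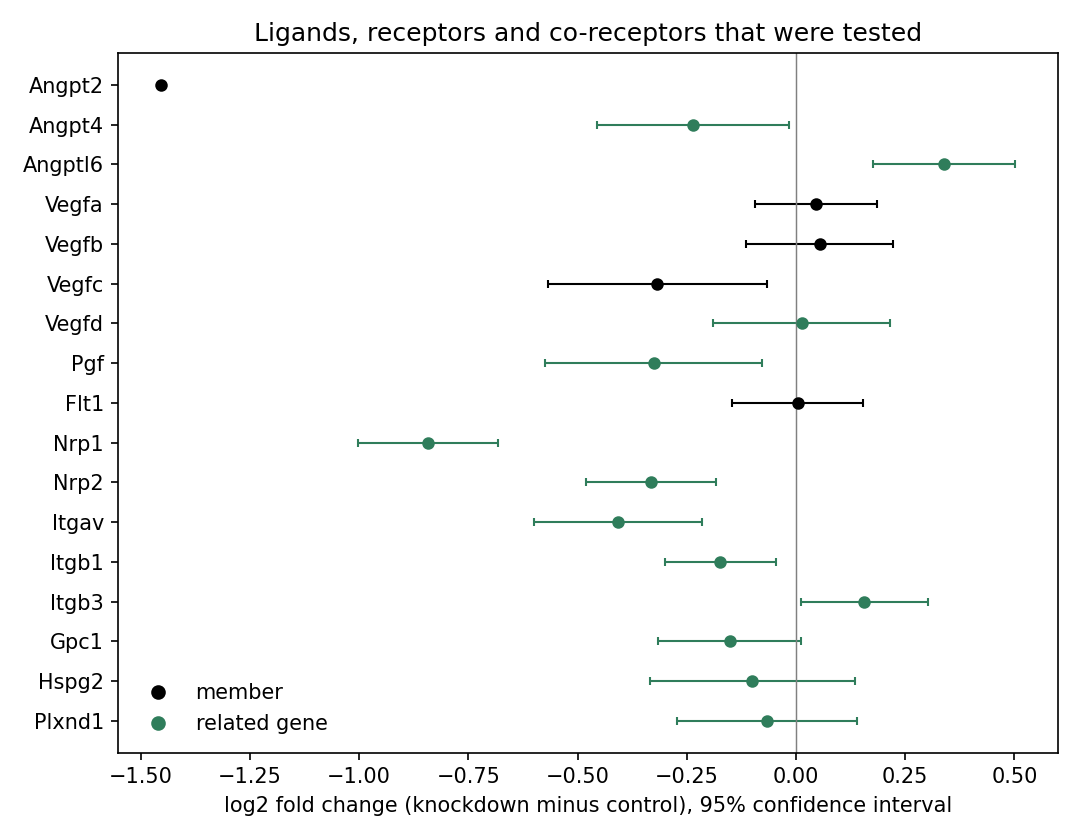
Difference between knockdown and control (x axis, log2 units) for the 17 tested ligands, receptors, co-receptors and angiopoietin-like genes, with bars for the 95% confidence interval of the limma fit; black marks members and green related genes, and Angpt2, around which the group was built, has no bar. Nrp1 at -0.84 is the next lowest after Angpt2, and Angptl6 at 0.34 is the highest.

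The angiopoietin-like proteins share the fibrinogen-like fold of the angiopoietins but do not bind TIE2. Of 6 listed, 4 had a probe set and 1 was tested. This was Angptl6, a circulating factor of energy metabolism, which was at 9.38, 9.33 and 9.35 in control and at 9.57, 9.76 and 9.75 in knockdown arrays, and rose by 0.34 (SE 0.070, limma adjusted p = 0.0507). In the structurally related platelet-derived growth factor family, 6 of 12 genes were tested, with a median difference of -0.06. Of the 6, 0 passed in either direction, where 6.67% of all tested genes did. Pdgfrb, the receptor of pericytes, differed by 0.19 (SE 0.057, adjusted p = 0.116), and its adjusted p with the replicate block was 0.0661. Csf1, the macrophage growth factor, differed by -0.16 (adjusted p = 0.266).

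Downstream of the receptors, 29 of 42 listed adaptors and effectors were tested, with a median difference of 0.048. Of the 29, 0 fell and 1 rose, where 3.88% and 2.79% of all tested genes did. The gene that rose was Foxo3, a transcription factor held in check by AKT and related to the FOXO1 that activates Angpt2 in endothelium, by 0.25 (SE 0.063, limma adjusted p = 0.0795). With the replicate block, 3 of the 29 rose and 0 fell, where 8.96% and 8.91% of all tested genes did. Of 17 tested transcription factors described upstream of Angpt2 or Vegfa, 0 passed in either direction (median 0.066), where 6.67% of all tested genes did. The lowest p in that list belonged to Elk3, an ETS factor, at 0.15 (adjusted p = 0.243), and to Tcf7l2, a Wnt effector, at -0.15 (adjusted p = 0.273). Among 7 tested genes of oxygen sensing, 0 fell and 1 rose, where 3.88% and 2.79% of all tested genes did, and the remaining 6 did not pass. The gene that rose was Egln1, the prolyl hydroxylase that marks HIF for degradation, by 0.29 (SE 0.063, limma adjusted p = 0.0571). Egln3, a related prolyl hydroxylase named after its values were seen, lay below the filter, at 7.16, 7.17 and 7.06 in control and at 6.79, 6.69 and 6.66 in knockdown arrays. In the fit without a filter its difference was -0.41 (SE 0.070, limma adjusted p = 0.0615), where the adjusted p of Egln1 was 0.141. Hif1a, which encodes the oxygen-regulated subunit that activates Vegfa, differed by 0.07 (adjusted p = 0.563).

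Of 32 other secreted regulators of angiogenesis, 19 were tested, 6 fell and 1 rose, where 3.88% and 2.79% of all tested genes did, and the median difference was -0.14. Ptn, pleiotrophin, a heparin-binding growth factor, was at 11.00, 11.11 and 10.97 in control and at 10.28, 10.37 and 10.48 in knockdown arrays, and fell by 0.65 (SE 0.075, limma adjusted p = 0.00905). Sparc, a matrix protein that binds VEGF, fell by 0.61 (SE 0.071, limma adjusted p = 0.00951). The guidance ligands Slit2 and Slit3, which signal through ROBO receptors in neurons and endothelium, fell by 0.53 (SE 0.066, limma adjusted p = 0.0133) and 0.42 (SE 0.057, limma adjusted p = 0.0175). The remaining calls were Egfl7, which is also in the endothelial marker list, Serpinf1 and Adm. Serpinf1 and Adm were named after their values were seen. Serpinf1, an inhibitor of angiogenesis also called PEDF, fell by 0.27 (limma adjusted p = 0.0548). Adm, the vasoactive peptide adrenomedullin, rose by 0.38 (SE 0.092, limma adjusted p = 0.0744). With the replicate block the list had 9 lower and 1 higher, where 8.91% and 8.96% of all tested genes were. The fallen genes included both promoters and inhibitors of vessel growth.

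**Figure D4:**
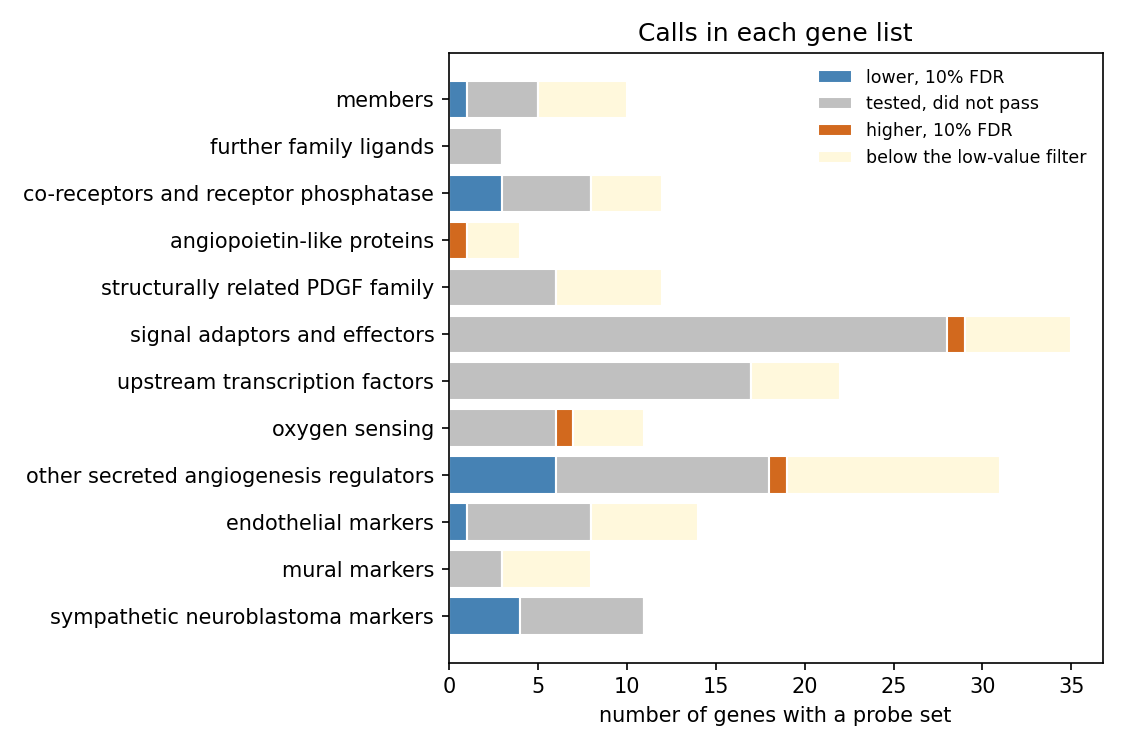
Number of genes (x axis) with a probe set in each list that were lower, not past the test, or higher at 10% FDR, or below the low-value filter. The list of other secreted regulators has 6 lower and 1 higher of 19 tested. The single call among the members is Angpt2, around whose fall the group was built, so nothing is read from it.

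Of the 17 list genes past 10% FDR named here, members and Pax6 aside, 6 remained past it whichever array was left out, namely Nrp1, Ptn, Sparc, Slit2, Dbh and Chgb. The other 11 lost it without control replicate 2 and also without knockdown replicate 3. These were Nrp2, Itgav, Angptl6, Foxo3, Egln1, Slit3, Serpinf1, Adm, Egfl7, Chga and Isl1.

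The identity of the cells was read from marker lists. All 11 sympathetic neuroblastoma markers with a probe set lay above the filter, 4 fell and 0 rose, where 3.88% and 2.79% of all tested genes did, with a median difference of -0.21. Their summed level was 15.53 to 15.57 in control and 15.36 to 15.39 in knockdown arrays on the log2 scale. It was thus lower in the knockdown, as Angpt2 was, and its part in the difference of Angpt2 was not tested. Such a sum adds the signals before the log2 is taken, so the brightest probe sets weigh most, here those of Stmn2, Chgb and Chga. It does not show that the whole list moved. Dbh, dopamine beta-hydroxylase, was at 10.48, 10.39 and 10.26 against 9.34, 9.20 and 9.34, and fell by 1.08 (SE 0.077, limma adjusted p = 0.00163). Chgb and Chga, granins of secretory vesicles, fell by 0.48 (limma adjusted p = 0.00905) and 0.30 (limma adjusted p = 0.0463), and Isl1, a neuronal transcription factor, fell by 0.35 (limma adjusted p = 0.0571). The other 7 did not pass, and were named after their values were seen. Of these, Th, Gata3, Hand2 and Mycn differed by -0.22, -0.21, -0.07 and -0.05. The knockdown arrays of Gata3 and Hand2 lay wholly below the control arrays, while those of Th and Mycn overlapped them. Only 3 of the 7 had a positive difference. Tubb3, neuronal tubulin, was higher on every knockdown array, at 0.12 (limma adjusted p = 0.307), and Phox2a and Stmn2 differed by 0.05 and 0.03.

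Of 14 endothelial markers, 6 lay below the filter, namely Cdh5, Cldn5, Emcn, Mmrn2, Robo4 and Sox17. So did the endothelial receptors Tek, Tie1 and Kdr. The other 8 markers passed the filter, namely Pecam1, Vwf, Esam, Eng, Erg, Egfl7, Plvap and Tal1. Of the 8 tested, 1 fell and 0 rose (median difference -0.08), where 3.88% and 2.79% of all tested genes did. The gene that fell was Egfl7, a matrix-bound angiogenic factor that hosts a microRNA. It was at 10.98, 11.01 and 10.87 against 10.57, 10.63 and 10.62, and fell by 0.34 (SE 0.063, limma adjusted p = 0.0371). The summed endothelial level was 12.61 to 12.68 in control and 12.52 to 12.54 in knockdown arrays, and its part in the difference of Angpt2 was not tested. Of 8 mural markers 3 were tested and 0 passed in either direction, where 6.67% of all tested genes did. The summed mural level was 10.57 to 10.71 in control and 10.68 to 10.71 in knockdown arrays, which overlapped. Notch3, a receptor of mural cells, differed by 0.04 (adjusted p = 0.873).

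Angpt2 lies within the span of Mcph1, a gene of chromosome condensation, in the RefSeq table. Mcph1 was at 10.89, 10.90 and 10.83 in control and at 11.12, 10.96 and 11.00 in knockdown arrays, a difference of 0.15 (SE 0.065, limma adjusted p = 0.265). It was thus higher on every knockdown array, opposite in sign to Angpt2, without passing the test. Of the 6 nearest genes with a probe set, 3 were tested and 0 passed in either direction, where 6.67% of all tested genes did. Csmd1 differed by -0.04, Agpat5 by -0.06 and Xkr5 by 0.05, with adjusted p from 0.746 to 0.871.

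The 5 tested genes whose values over the 6 arrays were most like those of Angpt2 were Rnf150, Scg3, Chst15, Fuca1 and Dnase2b, with Pearson correlations of 0.9974 to 0.9985 over 6 arrays. All of these points share the same libraries and the same pair of groups, and the genes were picked for this likeness, so the values are a description only. Their differences ranged from -0.37 (Scg3, a granin of secretory vesicles) to -1.27 (Chst15, a sulfotransferase of chondroitin sulfate).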

How the data were processed

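The authors deposited log2 values per probe set for 6 Affymetrix whole-transcript arrays, made with RMA background correction and quantile normalization. They removed genes of low expression and tested with limma, at a height not given in the sources used here. Forcing arrays to a common distribution by quantile normalization hides a change in total RNA per cell. Of 35556 probe sets, none with a missing value, 21789 had 1 symbol, 1621 several and 12146 none in the platform annotation, and the identifiers of 21698 were in a RefSeq table (GRCm38.p6). The probe set with the highest mean was kept per gene, and each member had 1. No pair of arrays shared more than 20 identical values. The number of arrays limits the precision.

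The comparison used limma (version 3.58.1; R version 4.3.3; lmFit, eBayes, two-sided), with Benjamini-Hochberg adjustment over the 11424 genes above the array median on at least 3 arrays. The procedure was tested on simulated data. The design text calls the arrays of a group biological replicates.

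The members and lists were chosen with earlier results of these data known. Named genes were the members, Pax6, up to 4 genes past 10% FDR per list with the lowest adjusted p (or 2 with the lowest p where none passed), the neighbours of Angpt2 and the 5 genes most like it. Vegfd, Hif1a, Itgb1, Ptprb, endothelial markers other than Egfl7 and the genes said to be so were named outside this rule. Their values had then been seen.

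Deviations from the group means correlated at 0.574, 0.323 and 0.230 within replicate numbers 1, 2 and 3, all over 0.1, so a blocked fit stands beside the reported one, which has no block. The pairing comes from the data, since the labels do not say what a number marks, and control replicate 3 with knockdown replicate 2 reached 0.178. Alternatives were the replicate block, each array left out, other low-value filters, centring, a second quantile normalization, the mean of probe sets, array weights and a mean-variance trend. Promoter sequences are RefSeq's, and the hairpin is from the study's oligonucleotide list.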

Additional observations from a re-analysis of the deposited data

How the results depend on the processing

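The difference of Angpt2 stayed between -1.55 and -1.36 under every alternative run. The members past 10% FDR were 1 (Angpt2) and became 2, with Vegfc, under the replicate block (2) and a second quantile normalization (2). The number stayed at 1 with each array left out. Since the group was built around the fall of Angpt2, nothing is read from this number or from its staying the same. The number of all tested genes past 10% FDR was 762. It was 2042 with the replicate block, 1383 after a second quantile normalization, 4239 with array weights (whose estimation stopped short of convergence), 245 without a low-value filter, 389 with a filter at the 25th percentile and 127 with a filter on variance. With 1 array left out it lay between 51 (without control replicate 2) and 1285 (without knockdown replicate 2). Apart from the calls given beside their genes, the block changed no call of a named gene other than those of Itgb1 and Gata3. The limma adjusted p of Itgb1, an integrin subunit, went from 0.139 to 0.0857, and that of Gata3 from 0.15 to 0.0703. The cause of these shifts was not tested.

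Among the tested genes followed through every alternative, signs turned for 7 that did not pass the test. Th, Gata3, Hand2, Mycn and the endothelial markers other than Egfl7 were not followed in this way. With array weights Flt1 was at -0.0087 and Agpat5 at 0.0011. With 1 array left out, Flt1 ranged from -0.0434 to 0.0456, Agpat5 from -0.0946 to 0.0017, Csmd1 from -0.1075 to 0.0034, Notch3 from -0.0486 to 0.096, Vegfd from -0.0589 to 0.0766, Stmn2 from -0.0031 to 0.0583 and Xkr5 from -0.0502 to 0.1406. Of the members below the filter, 4 also turned sign with an array left out: Tek ranged from -0.0927 to 0.1549, Tie1 from -0.0715 to 0.0596, Kdr from -0.1001 to 0.0647 and Flt4 from -0.1866 to 0.049, as did the neighbour Defb40, from -0.1019 to 0.0392. The 75th percentile filter left no value for Vegfc, Flt1 and Pax6, and the variance filter none for Vegfa, Vegfb and Flt1. Signals near background, as for the 5 members below the filter, limit what could be seen of the receptors. Among the single genes so followed, alternatives other than leaving out an array took 27 values out of the threshold and 18 into it. Leaving out an array took 54 out and 2 into it, with the direction kept.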
